A study of Mus musculus with 3 samples.

Results

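Axon guidance genes encode the secreted and membrane-bound cues that steer growing axons and migrating cells, together with the receptors that read them. Here they are the genes of the semaphorins and their plexin and neuropilin receptors, the netrins and the receptors Dcc, Neo1 and Unc5, the Slits and their Robo receptors, and the ephrins and Eph receptors. Members were taken by gene symbol from the gene lists that the authors attached to each Nkx2.2 region, with no use of signal or calls. This gave 263 of the 37271 regions in the deposited table, at 56 of its 14473 gene names. Of these names, 2 match by their letters alone and are not guidance genes, namely Unc50 and Unc5cl, with 1 region each. No region listed more than 1 member, and 33 of the 263 also listed another gene.

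The regions come from chromatin immunoprecipitation with a monoclonal antibody to Nkx2.2, a homeodomain transcription factor of the oligodendrocyte lineage, followed by sequencing. Oligodendrocyte progenitor cells (OPCs) were isolated with an anti-PDGFRA antibody from cortices of C57BL/6 mice at postnatal day 7 and kept dividing in a medium without serum that held 10 ng/mL PDGF-AA, 1 ng/mL NT-3 and 10 ng/mL CNTF. Oligodendrocytes (OLs) were made from such cells by 48 h without PDGF-AA and with 40 ng/mL of T3, a thyroid hormone, after which they no longer divide. Each state has 1 ChIP library from about 1.5e7 cells, so every difference below is one between 2 libraries, without replicates, and no test or p-value is given. Binding does not measure expression, so the identity of the cells could not be checked against marker genes in these data.

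Guidance cues act on the oligodendrocyte lineage itself as well as on axons. OPCs migrate long distances in the developing brain and carry neuropilins, plexins, Unc5 and Dcc receptors, Robos and Eph receptors, and netrin-1, semaphorins and Slits have been described as attracting or repelling them. Secreted semaphorins bind neuropilins, which signal through A-type plexins, while many membrane semaphorins bind plexins directly. Ephrins and Eph receptors both sit in the cell membrane and signal where cells touch.

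Nkx2.2 regions at these genes were called mostly in OLs, in proportions close to those over the whole table. Calls were made by the authors in each library. Of the 263 regions, 101 were called in OPC, or 38.4%, where 38.6% of all regions were. In OL 224 were called, or 85.2%, beside 85.3% of all regions. Regions called in OL only numbered 162 (background 61.4%), those called in both libraries 62 (background 23.8%) and those called in OPC only 39 (background 14.7%). The exact 95% interval of the OPC-only share of the guidance regions, 14.8%, ran from 10.8 to 19.7%, and covers counting error over regions alone. Regions of cadherin and protocadherin genes, another family of cell surface proteins, had 16.9% OPC-only calls among 130, with an interval of 10.9 to 24.5%. Regions of collagen, laminin and integrin genes had 12.1% among 190, with 7.83 to 17.6%. These intervals overlap one another.

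**Figure D1:**
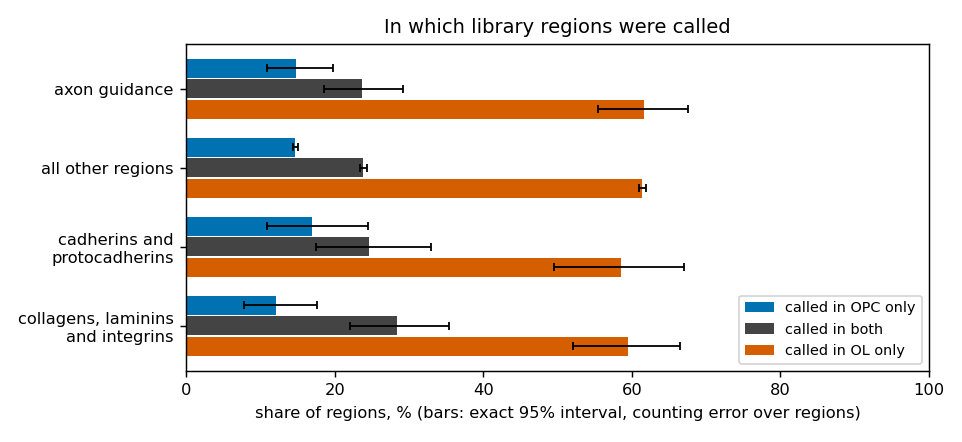
Share of regions (percent, horizontal axis) called in OPC only, in both libraries and in OL only, for the axon guidance genes, all other regions and 2 other gene families. Lines are exact 95% intervals for counting error over regions. OL-only calls are the largest share in each set, at 61.6% of the guidance regions, 61.4% of the others, 58.5% for cadherins and 59.5% for collagens, laminins and integrins.

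The strength of each region was compared as log2((OL + 1) / (OPC + 1)) of the deposited average signal, with a pseudocount of 1 signal unit. The median of this log2 ratio was 0.74 over the guidance regions and 0.74 over all regions. More OL than OPC signal was seen at 203 of the guidance regions (77.2%), beside 77.4% of all regions. Among the guidance regions 100 reached a log2 ratio of at least 1 (background 37.5%), and 18 lay at -1 or less (background 7.03%). Most of the former, 96, were called in OL only, and 17 of the latter in OPC only. How many lie on each side depends on the scaling, since any difference in depth between the libraries is unknown. With the median of all regions set to 0, a shift of 0.74, the guidance regions split into 34 and 50, and all regions into 13.2% and 17.5%. With the median of the regions called in both libraries set to 0, a shift of 0.24, the split was 74 and 27. All regions then split into 27.2% and 10.1%.

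The deposited average leaves out positions without signal, which bears on every weak value. No average in either library lay between 0 and 1, and at all 3018 regions whose highest OPC signal was 1 the average was exactly 1 as well. A value of 1.00 below is therefore the weakest signal above 0, and the ratio at such a region understates how little of it was covered. In OPC 14 guidance regions were listed at 0 (5.32%, beside 6.04% of all regions), and in OL 2 were.

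**Figure D2:**
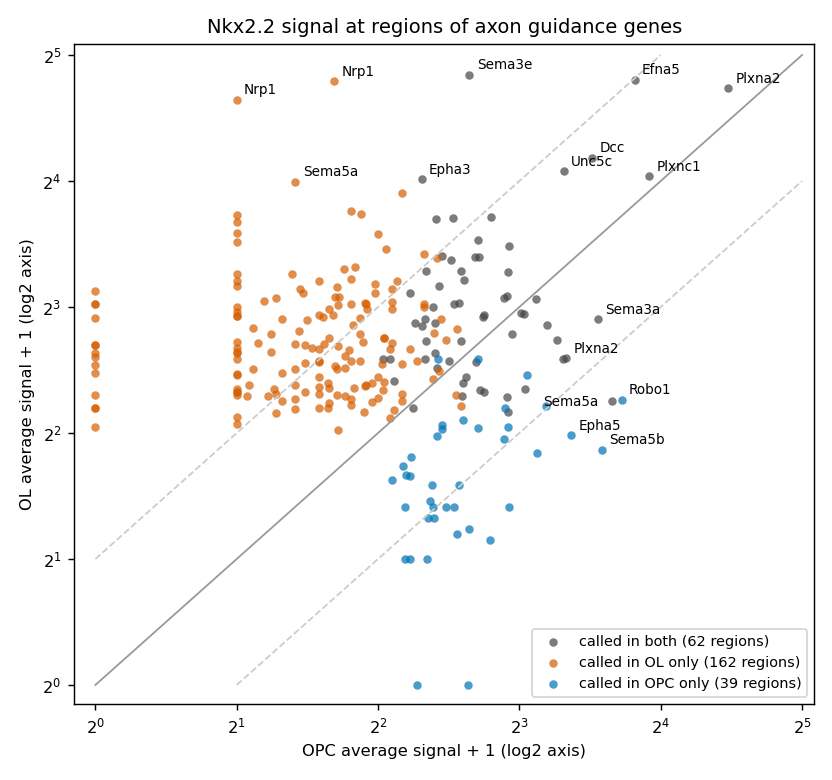
Average Nkx2.2 signal + 1 in OPC (horizontal) against OL (vertical), both on log2 axes, for the 263 regions, coloured by the library of the call. The solid line marks equal signal and the dashed lines a log2 ratio of 1 and -1. The named regions, chosen for the picture by an OPC signal above 9 or an OL signal above 14, include 2 of Nrp1 far above the upper dashed line and those of Robo1, Sema5a, Sema5b and Epha5 below the lower one.

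Position and number of regions differed more from the rest of the table than the calls did. Both comparison families shared the larger share inside genes. A larger share of genes with 5 or more regions was seen for the cadherins alone, in counts that repeat regions shared by neighbouring genes. Guidance genes had a median of 3 regions per gene, against 2 over all genes, and 18 of the 56 had 5 or more (32.1%, against 9.96% of all genes). The 10 genes with the most regions held 121 of the 263, or 46.0%. Regions lay inside the gene in 205 cases, within 1 kb of the gene's start in 27, farther upstream in 16 and downstream in 15. Over all 34514 pairs of a region and a gene, 46.9% lay inside the gene and 21.7% at the start, against 77.9% (72.4 to 82.8%) and 10.3% (6.88 to 14.6%) here. Inside the gene the middle of the region was 94.1 kb from the start at the median, against 46.0 kb over all genes, and 46.3% lay more than 100 kb from it, against 29.6%. Among pairs of a region and a cadherin or protocadherin gene, 75.8% lay inside the gene, at a median of 106 kb from its start, and 33 of 62 such genes had 5 or more regions. The 356 cadherin pairs come from 130 regions, so neighbouring genes of this family count the same region repeatedly. This holds for the share inside genes and for the 33 of 62, which is not a count of distinct regions. Among 191 pairs with collagen, laminin and integrin genes, 74.9% (68.1 to 80.9%) lay inside the gene and 8.9% at the start, at a median of 49.2 kb inside the gene. Of these 68 genes, 7 (10.3%) had 5 or more regions, near the 9.96% of all genes. Distances below are from the gene's start to the middle of the region, and negative ones lie upstream. Gene length was not matched, as no mm9 annotation was used here, and its part in these counts was not tested.

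Calls in either state reached most members. A region called in OPC was found at 43 of the 56 genes (background 57.3%) and one called in OL at 54 (background 94.8%). The exceptions in OL were Robo3, which encodes a divergent Robo receptor, and Sema3f, a secreted semaphorin, each with 1 region called in OPC only (background of genes with such calls alone 5.24%). These shares per gene grow with the number of regions and are not matched for it. All regions of 13 genes, or 23.2%, were called in OL only (background 42.7%). Among the 44 genes with 2 or more regions this held for 7, or 15.9% (background 28.8%). Of the same 44 genes, 21 (47.7%) had both an OPC-only and an OL-only region, beside 26.4% of all genes with 2 or more regions. Regions past a log2 ratio of 1 and of -1 were found in 12 (27.3%), beside 10% of such genes. These members had a median of 4 regions against 3. Of the 44, 18 had 5 or more regions, beside 1442 of the 8018 genes with 2 or more. Neither the 21 nor the 12 is matched for the number of regions. Taken at its highest region, the log2 ratio was at least 1 for 25 genes (background 34.7%) and -1 or less for 4 (background 4.19%), namely Robo1, Sema5b, Sema6d and Epha5. The median over genes at the highest region was 0.92, beside 0.73 for all genes, but with the mean over all regions of each gene it was 0.64, beside 0.67. Of 68 guidance genes listed for these families, 14 had no region assigned, namely Plxna3, Plxnb2, Robo4, Efna1, Efna3, Efna4, Efnb2, Efnb3, Epha2, Epha10, Ephb4, Sema4f, Sema6b and Sema6c.

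**Figure D3:**
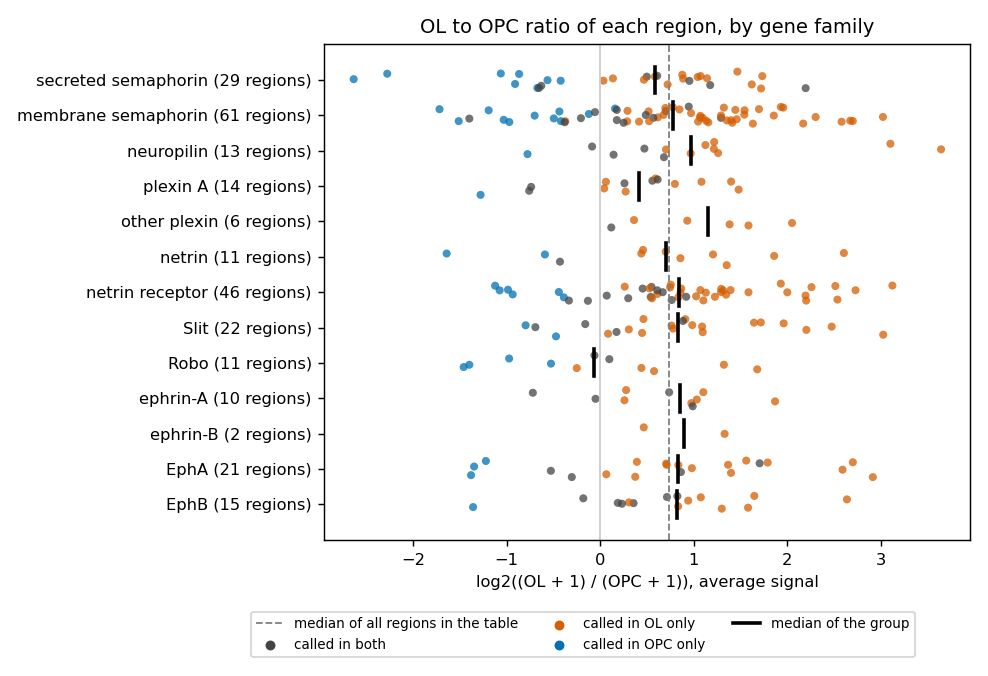
Log2 ratio of OL to OPC average signal (horizontal, pseudocount 1) of each region, by family, coloured by the library of the call; points are spread vertically at random. Black bars are family medians and the dashed line the median of all regions, 0.74. Family medians run from -0.06 for the Robos to 1.16 for the plexins outside the A group, and regions called in OPC only lie on the left in the families that have them.

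Ligand genes and receptor genes had the same median log2 ratio within 0.01, at 0.74 over 135 ligand regions and 0.73 over 126 receptor regions. Family medians lay above 0 except for the Robos. With the median of all regions set to 0 those of the secreted semaphorins, the A-type plexins, the netrins and the Robos were below 0, and with that of the shared regions set to 0 only the Robos were. Families rest on few genes and up to 61 regions, and no family was tested against another.

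Among the secreted semaphorins, which repel or attract cells through neuropilins, 29 regions lay at all 7 genes of the family, and 8 of them (27.6%, interval 12.7 to 47.2%) were called in OPC only, an interval that holds the 14.7% of all regions. Sema3a, the best known repellent of this group, had 4 regions, all called in OPC and 1 of them also in OL. At 130 kb into the gene (chr5:13529157-13529843, mm9) its signal was 10.8 in OPC and 6.47 in OL. A second region 128 kb from the start had 3.85 in OPC and was listed at 0 in OL, another at 22.2 kb had 5.53 and 3.10, and the one on its start 3.67 and 2.16. All 4 thus had more OPC signal, with a mean log2 ratio of -1.04. Sema3e, a ligand of plexin D1, showed the reverse order at each of its 4 regions. Its strongest, 170 kb into the gene, had 5.26 in OPC and 27.7 in OL, the highest OL value of any guidance gene. A region upstream of Sema3e, at -5.80 kb, had 3.5 in OPC and 13.96 in OL.

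Sema3d, a further secreted semaphorin, held regions of both kinds inside 1 gene. Of its 11 regions 7 were called in OL only, 2 in OPC only and 2 in both. At 26.8 kb the signal was 4.78 in OPC and 12.1 in OL, while at 115 kb it was 5.21 in OPC and listed at 0 in OL, the most negative log2 ratio of the guidance regions, -2.64. Sema3c had 6.53 in OPC and 3.87 in OL just upstream of its start, at -905 bp, but 4.47 and 9.6 at 73.1 kb. Sema3g had 6.56 and 3.14 downstream of the gene, and Sema3f 4.17 and 1.75 at -3565 bp. Sema3b had 3.29 and 6.92 at its highest region, which lies at -3638 bp and is also assigned to Gnai2.

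Membrane semaphorins held the most regions of any family, 61 at 10 of 13 genes. Sema5a and Sema5b encode transmembrane proteins with thrombospondin repeats, and Sema5a is known as an inhibitor of axon growth made by oligodendrocyte lineage cells. Sema5a had 14 regions over 441 kb, 11 called in OL only. Its farthest region had 1.67 in OPC and 14.95 in OL, with a log2 ratio of 2.58, and another at 271 kb had 1.00 and 11.75. In contrast, the region at 189 kb had 11.6 in OPC and 3.77 in OL, and was called in both libraries. Sema5b had 13 regions within 72.5 kb of its start, 7 called in OL only, 4 in OPC only and 2 in both. Its last region had 11 in OPC and 2.65 in OL, with a log2 ratio of -1.72, and the region before it, 1338 bp away, had 1.00 and 8. The mean log2 ratio was 1.05 over the regions of Sema5a and 0.30 over those of Sema5b.

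Sema6a, which is made by oligodendrocytes and acts through A-type plexins, had 13 regions. Its start had 6.42 in OPC and 7.39 in OL, and 8 of its 13 regions were called in OPC. The mean log2 ratio was 0.56, and the widest difference was at a region 89.5 kb inside, listed at 0 in OPC and 7.12 in OL. Sema4d, an oligodendrocyte semaphorin that signals through plexin B1, had more OL signal at all 7 of its regions. The highest were at 35.0 kb, with 2.50 in OPC and 12.6 in OL, and at 32.0 kb, with 4.31 and 12.0, and the mean log2 ratio was 1.43. Sema6d had 6.61 in OPC and 1.67 in OL at 41.1 kb, whereas its other 3 regions were called in OL only. Sema7a, a semaphorin with a GPI anchor, had 7.68 in OPC and 7.35 in OL inside the gene, and 4.33 and 9.46 upstream at a region shared with Ubl7. The single region of Sema4a, at -5083 bp, had 1.00 and 5.2. For Sema4c, Sema4b and Sema4g the highest region lay downstream, within 1 kb of the starts of Ankrd39, Cib1 and Mrpl43, so these regions cannot be given to the semaphorin genes alone. Inside Sema4b, at 2.54 kb, the signal was 6.45 in OPC and 3.58 in OL.

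The neuropilins, which bind secreted semaphorins, included the largest log2 ratio of the 263 regions. Nrp1 had 8 regions, 2 of them far stronger in OL than the rest. At 95013 bp (chr8:130977858-130978449, mm9) the signal was 1.00 in OPC and 24 in OL, which is a log2 ratio of 3.64, and at 124 kb it was 2.22 and 26.7, a ratio of 3.10. Closer to the start, the region at 69.8 kb had 7.19 in OPC and 6.71 in OL and was called in both libraries. Of its other regions 4 were called in OL only with 5.50 to 7.18 in OL, and the region at -2030 bp was called in OPC only, with 3.57 and 1.67. Nrp2 differed less, with 5 regions, 3 of them called in both libraries, log2 ratios from 0.14 to 0.97, and a highest region with 5.56 in OPC and 9.51 in OL.

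Plexins, the signalling receptors for semaphorins, had 20 regions at 7 of 9 genes. Plxna2 held the strongest OPC value of all guidance genes. At 9.62 kb into the gene (chr1:196455240-196456039, mm9) the signal was 21.3 in OPC and 25.6 in OL, and this region was also the fourth highest of the guidance regions in OL. Farther in, at 102 kb, it had 9.06 and 5.03, and at 127 kb 7.71 and 2.59, where the call was in OPC only. Its mean log2 ratio was 0.08. At Plxna4, with 6 regions, signal was 2.57 in OPC and 8.96 in OL at 279 kb, and 6.58 and 3.48 at 327 kb. Plxnc1, the receptor of Sema7a, had 1 region, strong in both libraries, with 14.1 in OPC and 15.4 in OL at 115 kb. Plxnb3 had 2.23 and 7.43 at its start, Plxnd1 1.00 and 5 at 20.9 kb, and Plxna1 4.23 and 4.39 at 14026 bp. Plxnb1 had 1 region, downstream of the gene, with 3.13 and 4.30.

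Netrin-1 and its receptors guide commissural axons and also act on migrating OPCs, with Dcc linked to attraction and Unc5 receptors to repulsion. Ntn1 had 7 regions, 6 of them called in OL only. Its highest lay downstream of the gene, in a stretch also assigned to Stx8, with 2.68 in OPC and 12.4 in OL, and 1 nearby region inside the gene had 7.29 and 4.50 and was called in OPC only. Its start had 2.89 and 4.27. Ntn4, a laminin-related netrin, had 5.93 in OPC and 1.22 in OL at 39.7 kb and 2.31 and 7.44 at 66.3 kb.

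Unc5c had the most regions of any guidance gene, 21, of which 10 were called in OPC and 18 in OL. The highest, at 136 kb (chr3:141263882-141264956, mm9), had 8.96 in OPC and 15.9 in OL, and another at 187 kb had 5.96 and 12.2. At 11.3 kb it had 1.00 and 12.3, with a log2 ratio of 2.73. Its regions also ran the other way, with 6.41 in OPC and 2.88 in OL at 26.5 kb, near the start of LOC100039923, and 4.94 and 2 at 194 kb. Over the 21 regions the log2 ratio ranged from -1.08 to 2.73, with a mean of 0.79. At the start of Unc5c, at -275 bp, the signal was 4.24 in OPC and 7 in OL. Dcc had 15 regions, the farthest 985 kb from the start. Its strongest, 693 kb from the start, had 10.4 in OPC and 17.2 in OL, and its start had 3.95 and 6.20, both called in both libraries. A region at 155 kb had 1.00 and 8.57, and one at 125 kb 4.81 and 1.67. Neo1, a relative of Dcc, had 3 regions, called in OL only, with 1.00 and 10.4 at 99.0 kb and 2.05 and 6.58 at its start. Unc5a had 7.71 in OL at 43.1 kb and was listed at 0 there in OPC, Unc5d had 8.14 in OPC and 6.25 in OL at 475 kb, and Unc5b had 4.90 and 6.07 at its start.

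**Figure D4:**
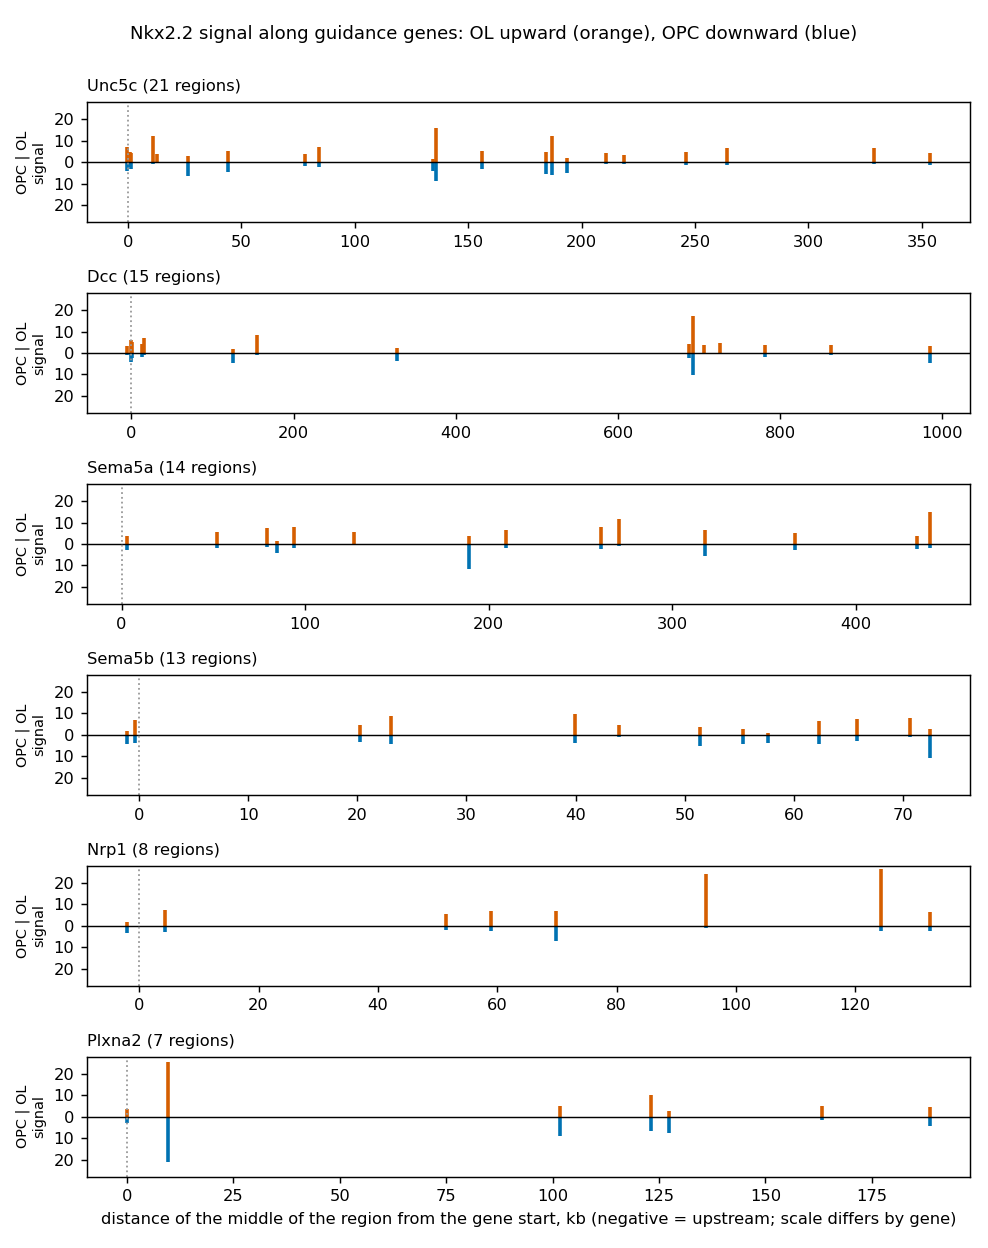
Average Nkx2.2 signal of every region of 6 guidance genes by the distance of its middle from the gene start (kb, scale differs by gene), OL upward in orange and OPC downward in blue. Plxna2 has its tallest pair of bars 9.62 kb from the start, with 21.3 in OPC and 25.6 in OL, while Nrp1 has 2 tall OL bars, at 95013 bp and 124 kb, with OPC at 1.00 and 2.22.

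Slits, large secreted repellents, had a family median of 0.83 (interval over regions 0.17 to 1.64), and their Robo receptors one of -0.06 (-1.40 to 1.32). These intervals overlap, and both hold the 0.74 of all regions. All 3 Slit genes had regions, 22 together, none with a log2 ratio of -1 or less. At Slit3, with 12 regions, signal was 1.00 in OPC and 8.21 in OL at 95.2 kb, and 7.23 and 4.09 at 466 kb. Slit1 had 6.53 and 7.5 at 125 kb and 6.70 and 5.89 at 46.3 kb, and Slit2 1.00 and 6.79 at 38.9 kb. One region of Slit3, at 503 kb, is also assigned to the microRNA gene Mirn218-2, whose start lies 8017 bp away, and was called in both libraries with 3.68 in OPC and 7.64 in OL.

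Robo regions numbered 11 at 3 of 4 genes, and 4 of them (36.4%, interval 10.9 to 69.2%) were called in OPC only, an interval that holds the 14.7% of all regions. Robo1 had 12.2 in OPC and 3.80 in OL at 225 kb (chr16:72888311-72888779, mm9), with a log2 ratio of -1.46, and 5.24 and 1.36 at 36.5 kb. At 132 kb the order was reversed, with 1.00 in OPC and 5.40 in OL. Robo2 had 8.11 and 3.64 at 378 kb and 7.08 and 6.74 at 355 kb. The only region of Robo3, at 2.48 kb, had 3.58 and 2.18.

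Ephrins had 12 regions at 3 of 8 genes, and all 12 were called in OL, with an interval of 73.5 to 100% that holds the 85.3% of all regions. Efna5, an ephrin anchored in the membrane by GPI, had 13.1 in OPC and 26.9 in OL at 18.6 kb, the second highest OL value of the guidance genes, and 8.88 and 5 at 221 kb. Efna2 had 2.29 and 5.46 at its start, and Efnb1, a transmembrane ephrin, 2.14 and 6.9 at -1129 bp. The authors' gene lists also hold Epl2, an older name of Efnb1, which the choice by symbol did not take. Eph receptors, the largest family of receptor tyrosine kinases, had 36 regions at 11 of 14 genes. Among EphA receptors, Epha4 had 1.00 in OPC and 11.05 in OL at 117 kb and 4.71 and 9.38 upstream of its start, at -1275 bp. Epha3 had 3.96 and 15.2 at 46.4 kb. Epha5 went the other way at 264 kb, with 9.30 and 2.96 and a call in OPC only, and Epha7 had 8.61 and 5.67 at 11.6 kb. Epha6 had 3 regions, and 1 of them, with 4.09 in OPC and 1.00 in OL at 120 kb, was an OPC-only call while the other two were OL-only. Epha8 had 1 region, downstream, with 3.13 and 5.75. Of the 3 regions of Epha1, 2 lay downstream at the start of Zyx.

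Ephb2 had 7 regions from 79.5 to 171 kb into the gene, all called in OL and 3 also in OPC. Its highest had 3 in OPC and 10.96 in OL, and another had 5.52 and 10.54. Ephb1 had 3.38 and 8.23 at 143 kb, but at its start, at -174 bp, 4.90 in OPC and 1.30 in OL. Ephb3 had 5.44 and 9.56 at its start, and Ephb6 4.28 and 5.2, also at its start.

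At gene starts the guidance genes had 27 regions at 25 members, Unc50 among them, and differences there were smaller than inside the genes. Of these 9 were called in OPC (background for regions at any gene start 40.6%) and 25 in OL (background 92.9%). Their median log2 ratio was 0.47, beside 0.60 for regions at all gene starts, and 0.78 for guidance regions inside genes, beside 0.85. The log2 ratio was at least 1 at 3 of them (background 19.8%), those of Plxnb3, Neo1 and Sema3g, and one of -1 or less at 1 (background 1.54%), that of Ephb1. Signal ran from 1.80 to 6.53 in OPC and from 1.30 to 9.56 in OL. A CpG island was assigned to 21 of the 27, or 77.8%, beside 83.3% of regions at all gene starts, and to 36 of the 263 guidance regions, or 13.7%, beside 18% of all regions. More OPC than OL signal was seen at 4 of the 27 (background 13.4%), those of Ephb1, Sema3a, Robo1 and the more distant region of Sema3c.

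**Figure D5:**
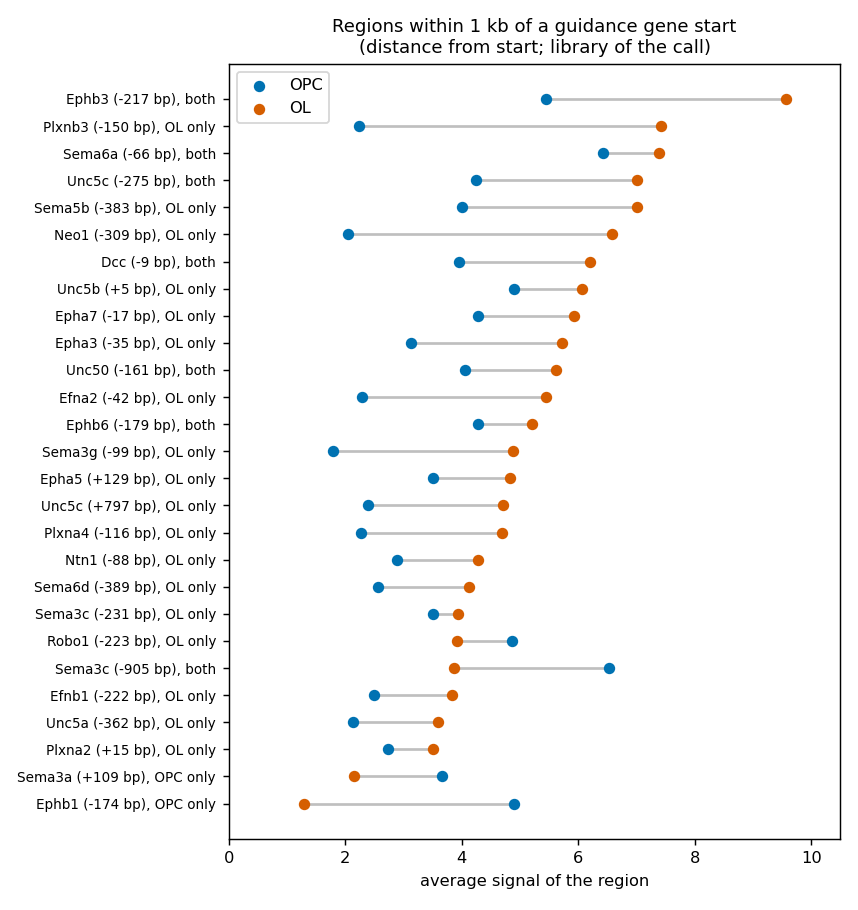
Average signal (horizontal) in OPC (blue) and OL (orange) of the 27 regions whose middle lies within 1 kb of a member's start, with that distance and the library of the call at the left. Ephb3 has the highest OL value, 9.56, and Ephb1 at the bottom the lowest, 1.30, with 4.90 in OPC.

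The promoters of the 4 starts past a log2 ratio of 1 or -1, and of Ephb3 as the strongest start, are shown so that the sequence can be read beside the signal. Each holds 250 bases before and 50 after the RefSeq start (GRCm38.p6), on the gene's strand. The deposited regions are on mm9, so how far a region covers these bases was not determined. Capitals mark the letters AAGTG on either strand (CACTT on the printed strand), the core bound by homeodomains of the NK2 class.
Ephb1, chr9:102354644-102354943, minus strand: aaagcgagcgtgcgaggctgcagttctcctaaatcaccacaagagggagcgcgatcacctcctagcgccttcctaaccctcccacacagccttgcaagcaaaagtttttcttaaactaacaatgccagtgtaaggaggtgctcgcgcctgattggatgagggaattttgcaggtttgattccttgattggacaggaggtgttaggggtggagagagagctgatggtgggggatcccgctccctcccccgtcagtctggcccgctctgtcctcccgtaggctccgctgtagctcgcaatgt
Plxnb3, chrX:73756853-73757152, plus strand: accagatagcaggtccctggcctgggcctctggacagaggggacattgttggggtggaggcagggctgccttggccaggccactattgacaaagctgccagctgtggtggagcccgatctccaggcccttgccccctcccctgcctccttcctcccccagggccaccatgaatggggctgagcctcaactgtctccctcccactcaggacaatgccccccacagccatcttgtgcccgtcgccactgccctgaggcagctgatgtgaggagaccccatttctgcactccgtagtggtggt
Neo1, chr9:59036392-59036691, minus strand: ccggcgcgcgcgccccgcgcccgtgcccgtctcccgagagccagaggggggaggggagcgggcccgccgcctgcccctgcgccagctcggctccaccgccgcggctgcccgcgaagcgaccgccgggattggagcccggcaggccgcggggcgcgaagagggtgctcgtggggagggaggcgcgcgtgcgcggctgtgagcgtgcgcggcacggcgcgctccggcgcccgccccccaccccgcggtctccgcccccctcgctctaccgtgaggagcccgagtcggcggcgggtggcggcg
Sema3g, chr14:31217623-31217922, plus strand: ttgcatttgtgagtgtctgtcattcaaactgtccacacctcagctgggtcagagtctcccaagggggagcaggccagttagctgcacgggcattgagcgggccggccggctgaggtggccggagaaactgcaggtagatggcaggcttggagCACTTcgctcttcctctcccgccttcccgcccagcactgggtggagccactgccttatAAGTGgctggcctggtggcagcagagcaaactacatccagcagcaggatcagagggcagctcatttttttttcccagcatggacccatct
Ephb3, chr16:21204545-21204844, plus strand: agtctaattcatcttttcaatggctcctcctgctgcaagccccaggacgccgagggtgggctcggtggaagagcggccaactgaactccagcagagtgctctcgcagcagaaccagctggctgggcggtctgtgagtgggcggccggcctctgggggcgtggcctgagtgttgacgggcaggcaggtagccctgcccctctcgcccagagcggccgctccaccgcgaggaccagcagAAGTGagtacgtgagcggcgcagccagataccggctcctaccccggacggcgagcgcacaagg

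Sema3g held the core in 2 places, Ephb3 in 1, and Ephb1, Plxnb3 and Neo1 in none. RefSeq promoters were matched for 21 of the 25 members with a region at the start, giving 23 promoters of 300 bases. The core was in 12 of these 23 (52.2%), beside 46.4% of all 32851 promoters, and over all guidance genes that the rule takes, with or without a region, it was in 28 of 76 (36.8%). The longer TNAAGTG, which contains the core and was likewise searched on both strands, was in 1 of the 23 (4.35%) beside 11.5% of all. These windows are short and leave out most of each region, and a match is not evidence of a site.

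Genes that act downstream of guidance receptors, or beside them, had as 1 group a median log2 ratio near that of all genes. Of 64 such genes in 6 lists, 57 had a region. OPC calls fell at 47 of these, or 82.5% (background 57.3%), and OL calls at 54, or 94.7% (background 94.8%), with a median log2 ratio of 0.70 at the highest region beside 0.73 for all genes. These genes had 5.21 regions each on average, against 2.38 over all genes, and the shares are not matched for that. The ratio was at least 1 for 23 of the 57 genes (background 34.7%) and -1 or less for 5 (background 4.19%). The latter were Srgap2, Evl, Adam10, Chl1 and Ntng1. Medians of the single lists below rest on few genes, each at its highest region, and no list was tested against another. The collapsin response mediators, cytoplasmic proteins through which Sema3a acts on the cytoskeleton, had regions at all 5 genes and a median of 1.39. With the mean over all regions of a gene, their log2 ratios ran from 0.18 at Dpysl3 to 2.93 at Dpysl4, which had 1 region. The highest region had 3.33 in OPC and 13.1 in OL at Dpysl2, and 12.6 and 6.04 at Dpysl5. Over all regions of Dpysl2 and of Dpysl5 the mean log2 ratios were 0.80 and 0.53. Effectors of Slit and Robo had regions at all 12 genes and a median of 0.02, with means over the regions of a gene from -0.67 at Enah to 1.52 at Arhgap39. Among them the Srgap genes, whose products bind Robo receptors, differed, with 15.75 in OL and a listing at 0 in OPC at Srgap1, 15.95 in OPC and 2.06 in OL at Srgap2, and 22.6 and 16.1 at Srgap3. Over all their regions the mean log2 ratios of these 3 genes were 1.17, 0.14 and 0.34. Netrin effectors had regions at all 8 genes and a median of 0.82, and Trio had 22 regions, the highest of which had 5.52 in OPC and 14.7 in OL. Semaphorin and plexin effectors had regions at 10 of 12 genes (median 1.10), and Eph and ephrin effectors at 11 of 13 (median 0.70). Chn2 had 3.54 and 16.8. Other cues and receptors had regions at 11 of 14 (median 0.82). Among them Dscam, an adhesion receptor, had 2.08 and 15.3 at the highest of its 21 regions. Chl1, a relative of L1, had 20.2 and 3.33 at the highest of its 10. Over all regions of Chl1, however, the mean log2 ratio was 0.40.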

How the data were processed

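The deposited table lists regions that merge OPC and OL intervals, per the file headers; calls were made per library. The submitters' processing notes name BWA, MACS 1.4.2 and mm9. Thresholds, scaling and any role of the input are, for these values, not given in the sources used here. The authors deposited, for each region and library, the average and the highest signal and a mark for a called interval, with counts of CpG islands, promoters and genes. Depth is unknown, as signal does not give reads. Values of the input library were not used here.

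From these, log2 ratios of OL to OPC average signal, with a pseudocount of 1 and no filter, were taken in Python 3.11.15 with pandas 2.3.3 and scipy 1.17.1. Simulated shifts were also run through the formula, which returns them by construction, so they check the arithmetic of the code alone. Distances run from the middle of a region to the deposited gene start, and a region within 1 kb was placed at the start. Shares carry exact Clopper-Pearson 95% intervals. Coordinates are given as deposited. With 1 library per state no test was run.

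Members and gene lists were chosen with earlier results of these data known. Members given values were those of the 10 highest regions per library. Further ones were those of the 10 largest ratios each way among regions above the members' median signal of 4.28. The 10 genes with the most regions and the highest region of each family were also taken. Starts past a ratio of 1 or -1, or with the 5 highest signals, were added. Other members were then named so that each is accounted for, chosen after their values were seen. Genes downstream of or beside the receptors that are given values were picked under none of these rules.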

Additional observations from a re-analysis of the deposited data

How the results depend on the processing

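No paired analysis was possible because each state has 1 library, and for the same reason no library could be left out. Of 75 values under other settings, 64 stayed within 1.5 times the count reported or within the binomial interval of the median over regions or genes. The interval over genes was wide, 0.39 to 1.33, and settings that drop few regions could hardly move a count. The tally is therefore no measure of stability. With pseudocounts of 0.5 and 2 the median over regions was 0.81 and 0.62. With the highest instead of the average signal it was 1.00, as over all regions. Then 138 regions had a ratio of 1 or more and 34 one of -1 or less. With the shared regions set to 0 the median was 0.49, and with all regions set to 0 it was 0.000498, with 34 regions at 1 or more and 50 at -1 or less, as these settings subtract a constant. Keeping only regions above the median signal of the table, 139 of the 263, left 48 at 1 or more and 6 at -1 or less. Keeping only calls at or above the median signal of each library's calls left 48 OPC calls, 120 OL calls and 23 regions with both. Counts over all regions are not given for these cuts or for the highest signal. Whether the guidance regions moved more than the rest was not tested. Leaving out Unc5c, regions outside the gene and its start, regions with several genes or, chosen after seeing the data, Unc50 and Unc5cl kept each value on these terms. Unknown depth and single libraries limit all differences.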

Other observations

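Some neighbouring regions of 1 guidance gene carried calls in opposite libraries, at a share close to that over all genes. Of 54 pairs of neighbours in a gene lying within 5 kb of each other, 8 (14.8%) joined an OPC-only with an OL-only region, beside 12.9% of 6164 such pairs over all genes. In Sema5b, 331 bp separate a region at -1105 bp with 4.23 in OPC and 1.67 in OL from the region at the start with 4 and 7. In Epha3, 219 bp separate an OPC-only region with 3.67 and 1.00 from a region called in both libraries with 3.96 and 15.2. In Unc5c, 587 bp separate an OPC-only region with 4.27 and 1.5 from the highest region of the gene, called in both libraries.

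Calls did not always follow the stronger signal. The start of Robo1 had 4.86 in OPC and 3.92 in OL and was called in OL only, as was a region of Sema5b at 51.4 kb with 5 and 3.63. A region of Sema4b at 5.73 kb, with 4.38 and 5, was called in OPC only.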
